A study of Mus musculus with 16 samples.

Results

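Sensory neurons of the trigeminal ganglion (TG) were compared with those of the vagal nodose-jugular complex (NG/JG). The comparison took the 4 TG libraries and the 4 NG/JG libraries, 8 of the 16 in the series, by the ganglion named in their labels, and no measured value entered the choice. Both groups came from untreated adult male C57BL/6J mice with the same alleles, Pirt-cre and Rosa26-LSL-tdTomato, so that the only labelled difference between them was the ganglion. Cre under the Pirt promoter switches on the fluorescent protein TdTomato in most peripheral sensory neurons, and TdTomato-positive cells of medium to strong signal were taken through 2 rounds of fluorescence-activated cell sorting (FACS). The nodose and jugular ganglia were not separated, ganglia of both sides were taken after perfusion with buffer, and the number of mice behind each library is not given in the sources used here. P-values therefore measure the spread between libraries, which may be partly technical. The other 8 libraries, from L3-L5 and T10-L1 dorsal root ganglia (DRG), enter below only as background levels.

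The TG carries touch, temperature and pain from the face, mouth, cornea and dura. The nodose ganglion supplies the heart, lungs and gut, while the jugular ganglion supplies the airways, outer ear and skin. Nodose neurons arise from an epibranchial placode, jugular neurons from neural crest, and TG neurons from both crest and the trigeminal placode. Hox genes record position along the body axis: the trigeminal region lies in front of their domain of expression, and the vagal region lies within it.

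Total reads on genes were between 5082985 and 7877884 in the TG libraries and between 7187906 and 9675318 in the NG/JG libraries. NG/JG library 4 had the most reads on genes and yet the fewest genes with a read, 10132. The other NG/JG libraries had 11314 to 13029 such genes and the TG libraries 11527 to 15354. Loss of transcripts before sequencing was not tested, so a very low level in a single library does not show absence. A gene without a read had an upper limit of 0.310 to 0.590 CPM (reads scaled to library size, as counts per 1e6 reads) in a single library, set at 3 reads and covering counting error only. TG libraries 2, 3 and 4 resembled each other, with Spearman's rho of 0.888 to 0.904 over the genes tested. TG library 1 stood apart from them at 0.604 to 0.619, about as far as from NG/JG library 1 (0.605). The NG/JG libraries were as far from each other (0.525 to 0.601) as from TG libraries 2 to 4 (0.551 to 0.639). Where leaving out TG library 1 changed a call, the value without it is given too. Such p-values rest on TG libraries 2 to 4, whose closeness may be partly technical, so they are not stronger evidence than the full fit. The reason for that closeness was not tested.

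**Figure D1:**
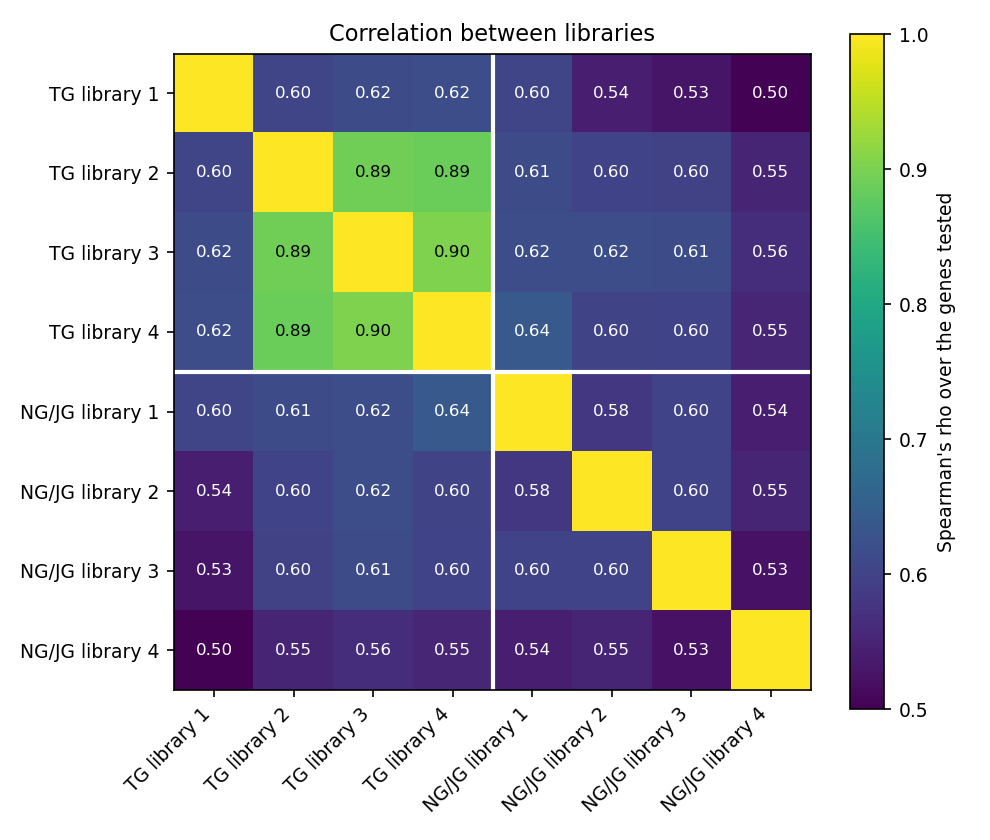
Spearman correlation of log2(CPM + 1) between the 8 libraries over the 11769 genes tested, with colour and printed values both giving rho. TG libraries 2 to 4 form a block of 0.89 to 0.90, TG library 1 lies outside it at 0.60 to 0.62, and the 4 NG/JG libraries do not form a block.

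The sorted cells carried sensory neuron genes, at levels that differed widely between libraries. CPM values of TG and NG/JG below were normalized by the trimmed mean of M-values (TMM) and are listed in the order of library number. DRG levels are CPM by total reads on genes without that step, so comparison with them is approximate. Each fold change is log2 of TG over NG/JG with its standard error (SE), so a negative value means a higher level in NG/JG. Pirt, the phosphoinositide-binding protein whose promoter marked the cells, was at 16.3, 139, 20.1 and 99.0 CPM in TG and at 59.9, 47.1, 272 and 21.7 CPM in NG/JG, which overlapped (-0.55 ± 0.91, adjusted p = 0.940). Isl1, a transcription factor of sensory neurons, was at 0.123 CPM in TG library 1, a single read, and at 35.0, 83.5 and 38.1 CPM in the other TG libraries. The summed level of 12 sensory neuron markers was 927 CPM in TG library 1 against 2404 to 4063 CPM in the other TG libraries and 1457 to 4872 CPM in NG/JG. In NG/JG library 4, the glutamate transporter Slc17a6 and the RNA-binding protein Elavl4 were at 0.222 and 1.00 CPM, against 54.3 to 281 and 58.4 to 213 CPM in the other NG/JG libraries.

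Avil, Prph, Uchl1, Tubb3, Isl1, Pou4f1, Elavl4 and Scn9a overlapped between the groups, and their adjusted p was 0.663 or higher. Among the neuron markers, Snap25, a SNARE protein of synaptic vesicle release, was the one with an unadjusted p under 0.05. It was at 192, 246, 431 and 533 CPM in TG and at 337, 1165, 1057 and 1354 CPM in NG/JG (-1.48 ± 0.49, adjusted p = 0.250). Rbfox3, the neuronal nuclear protein NeuN, was at 8.38, 93.6, 89.2 and 78.2 CPM in TG and 11.2 to 27.9 CPM in NG/JG (1.93 ± 0.90, adjusted p = 0.501). Glial genes were abundant in both groups: 7 satellite glia markers summed to 21742 CPM in TG library 1, 61026 to 68834 CPM in TG libraries 2 to 4 and 24309.5 to 37414 CPM in NG/JG. In such bulk libraries, fewer cells of a type and less RNA per cell cannot be told apart.

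Over the 11769 genes tested, the quasi-likelihood fit of edgeR with adjustment at 0.05 called 4 that rose in TG (0.034%) and 2 that rose in NG/JG (0.017%). The 4 were Beta-s, Klk6, Fth1 and Gh, and the 2 were Hoxb5 and Acsbg1. Before adjustment, 652 genes (5.54%) had p under 0.05 with the higher level in TG and 528 (4.49%) with it in NG/JG. DESeq2 on the same genes called 249 (2.12%) higher in TG and 211 (1.79%) higher in NG/JG. Groups did not overlap for 722 genes higher in TG (6.13%) and 409 higher in NG/JG (3.48%). These shares over all genes are the background for the counts of list members below. With the thresholds of the study's methods, a mean of over 5 RPKM (reads on the gene per kilobase of exon, scaled to library size) in the higher group and a fold above 5, 3 genes were higher in TG and 2 in NG/JG. Beta-s was the called gene without an exon length and hence without an RPKM.

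These counts depended on TG library 1. Without it, 208 of 12603 genes (1.65%) rose in TG and 117 (0.928%) rose in NG/JG by the quasi-likelihood test. Of those 208 genes, 169 (81.2%) had a level in TG library 1 nearer to the NG/JG mean than to that of TG libraries 2 to 4. So had 85 of the 117 (72.6%). Both sets were chosen without TG library 1, so these shares do not describe that library over all genes. With it included, 194 of the 208 and 92 of the 117 had an unadjusted p under 0.05. The 2 directions also differed in transcript length. The median exon length was 1929.5 bases for the 652 genes higher in TG and 4504.5 bases for the 528 higher in NG/JG, against 3855.5 bases over the genes tested. The part of length in these results was not tested.

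**Figure D2:**
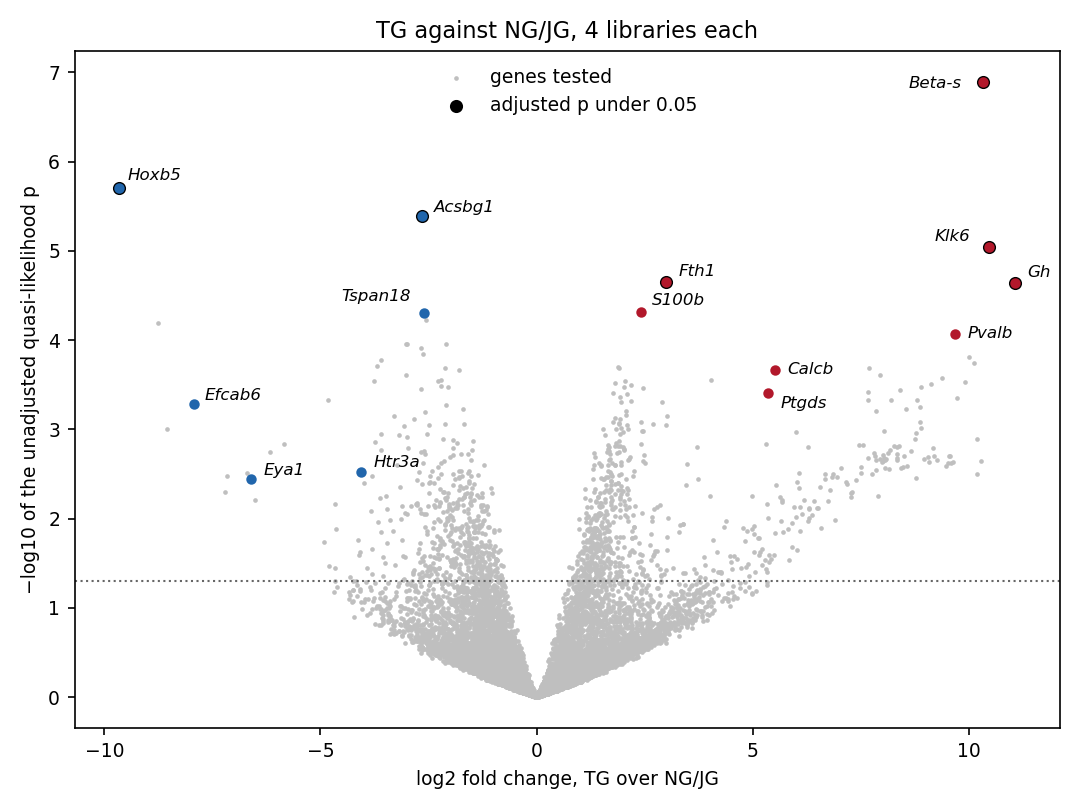
Each point is 1 of the 11769 genes tested, with its fold change (log2, TG over NG/JG) on the horizontal axis, -log10 of the unadjusted quasi-likelihood p on the vertical axis, and a dotted line at the unadjusted threshold of 0.05. The 6 black-ringed genes passed the adjusted threshold, 4 on the TG side and 2 on the NG/JG side, and red and blue points are other genes described in the text.

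Hox genes gave the sharpest difference on the vagal side. Hoxb5, at chr11:96163909-96167434 on the forward strand (mm9), had 3 reads in all 4 TG libraries together and 4148 in the NG/JG libraries. Its levels were 0.123, 0.227, 0 and 0.189 CPM in TG and 38.1, 93.5, 211 and 137 CPM in NG/JG, with no overlap. The ratio of pooled read shares was 1029 (95% interval 352 to 4992, counting error only), and the difference passed the test (adjusted p = 0.0117). Without TG library 2, TG library 3 or NG/JG library 3 the adjusted p was 0.0521, 0.0527 and 0.0745. In the 8 DRG libraries Hoxb5 lay between 2.67 and 36.5 CPM, the latter below the lowest NG/JG library.

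Its neighbours in the HoxB cluster had the same order. Hoxb6 had 1 read in TG and was at 18.6, 25.6, 13.5 and 23.7 CPM in NG/JG (adjusted p = 0.130, DESeq2 adjusted p = 2.9e-05). Hoxb3 had no read in TG and was at 1.42 to 3.88 CPM in NG/JG, at least 20.8-fold higher against a floor of 3 reads over the TG group. It did not pass by either method (adjusted p = 0.161, DESeq2 adjusted p = 0.37). The 3 Hox genes that passed the filter on low counts were these HoxB genes, and each was without overlap and at an unadjusted p under 0.05, but a gene with no reads in TG could pass that filter only through its NG/JG level. Hoxb4 and Hoxb2, named after their values were seen, did not pass it. They had no read in TG, were at 10.7, 9.82, 13.3 and 0 CPM and at 2.97, 6.79, 19.8 and 0 CPM in NG/JG, and were thus at 0 in NG/JG library 4 too. Over the 39 Hox genes measured, the summed level was 7.95 to 16 CPM in TG, 107 to 281 CPM in NG/JG and 91.7 to 299 CPM in DRG. Most of the sum in TG libraries 1, 3 and 4, though not in library 2, was Hoxd1, also named after its values were seen and not tested, which had the opposite order: 15.4, 0.909, 10.3 and 8.90 CPM in TG against 0, 0, 0 and 0.667 CPM in NG/JG.

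Other transcription factors of sensory neurons mostly overlapped. Of 33 measured, 17 were tested, 1 had an unadjusted p under 0.05 (5.88%, near the 4.49% over all genes), and the median fold change was -0.37 against -0.05 over all genes. Without TG library 1 that median turned to 0.56, over 21 tested. The 1 was Eya1, a transcriptional coactivator of cranial placodes. It was at 0, 0.227, 1.14 and 0.189 CPM in TG and at 14.7, 42.9, 92.1 and 5.34 CPM in NG/JG (-6.60 ± 1.82, adjusted p = 0.163, DESeq2 adjusted p = 6.18e-05). The groups did not overlap, although the NG/JG libraries themselves spanned a wide range.

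The study's own list of NG/JG genes was drawn from these libraries, so its direction is not independent evidence. Of its 5 members given here, 3 had an unadjusted p under 0.05 and no overlap, namely Hoxb5, Efcab6 and 2410057H14Rik. Efcab6, an EF-hand calcium-binding protein, was at 0.247, 0, 0 and 0.568 CPM in TG and at 7.76, 35.6, 85.1 and 92.0 CPM in NG/JG (-7.93 ± 1.67, adjusted p = 0.103). 2410057H14Rik had 1 read in TG and was at 3.62, 13.9, 1.49 and 18.1 CPM in NG/JG (adjusted p = 0.191). Some of its exonic sequence, 14.92%, is shared with Tspan2 on the opposite strand, and reads of the 2 cannot be told apart without strand. Ddc, the enzyme that makes dopamine and serotonin from their precursors, was at 36.7, 0.101, 29.6 and 6.90 CPM in NG/JG and 0 to 2.47 CPM in TG, and the groups overlapped (adjusted p = 0.535). Cgn, a tight junction protein, was at 0, 19.1, 34.7 and 44.9 CPM in NG/JG and 0 to 3.99 CPM in TG, again with overlap (adjusted p = 0.541).

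Receptors for serotonin and neurotrophins were higher in NG/JG. Htr3a, a subunit of the serotonin-gated cation channel on vagal afferents, was at 0.493, 21.8, 79.4 and 15.7 CPM in TG and at 134, 334, 901 and 605 CPM in NG/JG. The groups did not overlap (-4.07 ± 1.09, adjusted p = 0.157, DESeq2 adjusted p = 0.000555), and without TG library 1 the fold change was -3.66 (adjusted p = 0.0527). Ntrk2, the receptor of the neurotrophin BDNF, was at 96.4, 147, 209 and 178 CPM in TG and at 519, 437, 684 and 385 CPM in NG/JG, also without overlap. It did not pass over the 8 libraries (-1.68 ± 0.38, adjusted p = 0.127) and passed without TG library 1 (-1.51, adjusted p = 0.0439). Ngfr, the p75 neurotrophin receptor, was at 40.6 to 84.1 CPM in TG and at 69.0, 318, 730.4 and 477 CPM in NG/JG, where NG/JG library 1 fell inside the TG range (-2.84 ± 0.63, adjusted p = 0.125). Il6st, the shared signalling subunit of interleukin-6 type receptors, was at 301, 91.6, 36.6 and 53.8 CPM in TG and 226 to 747 CPM in NG/JG, and only TG library 1 overlapped with NG/JG (-1.84 ± 0.67, adjusted p = 0.328). Il6st passed without TG library 1 (-2.84, adjusted p = 0.0352). Of 15 neurotrophin, GDNF and cytokine receptors tested, 4 (26.7%) had an unadjusted p under 0.05, each higher in NG/JG, and the median fold change was -0.65.

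Some receptors known from nodose neurons were high in part of the NG/JG libraries and were too uneven to pass the filter on low counts. They were named after their values were seen and have no test over the 8 libraries. P2rx2, an ATP-gated channel subunit, was at 0.247 to 0.909 CPM in TG and at 169, 32.7, 868 and 0.111 CPM in NG/JG. Npy2r, a neuropeptide Y receptor of vagal afferents, had 2 reads in TG and was at 3.49, 54.5, 60.1 and 0.111 CPM in NG/JG. Both were thus near 0 in NG/JG library 4, which had the fewest genes with a read. The nicotinic subunits Chrna3 and Chrnb4 were at 0, 35.6, 274 and 0.111 CPM and at 0.388, 72.0, 212 and 259 CPM in NG/JG, against 0 to 5.11 and 0 to 0.455 CPM in TG. Each of the 2 was near 0 in NG/JG library 1, and Chrna3 also in library 4. The 21 gut and visceral hormone receptors measured, of which 5 were tested, held no member with an unadjusted p under 0.05. Their summed level was 49.7 to 132 CPM in TG and 97.6 to 304 CPM in NG/JG.

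Voltage-gated sodium channels gave 2 of 12 tested members (16.7%, against 4.49% over all genes) at an unadjusted p under 0.05, both higher in NG/JG, and a median fold change of -0.30. Scn3b, an auxiliary subunit, was at 57.7, 11.6, 32.9 and 25.2 CPM in TG and at 44.1, 139.7, 209.7 and 141 CPM in NG/JG (-2.07 ± 0.68, adjusted p = 0.250), where TG library 1 and NG/JG library 1 crossed. Scn10a, the nociceptor channel Nav1.8, was at 48.1 to 105 CPM in TG and 12.9 to 129 CPM in NG/JG and overlapped fully (0.23 ± 0.75, adjusted p = 0.974).

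Acsbg1, a long-chain acyl-CoA synthetase of glia and neurons, was the second gene that rose in NG/JG. It lies at chr9:54452684-54509677 on the reverse strand (mm9). Its levels were 156, 122, 114 and 133 CPM in TG and 797, 823, 1002 and 697 CPM in NG/JG, means of 131 ± 18.2 and 830.2 ± 127 CPM (SD, n = 4). The 2 groups were narrow and far apart (-2.66 ± 0.33, adjusted p = 0.0158), and in DRG it lay between, at 260 to 506 CPM. The adjusted p was 0.129, 0.149 and 0.0792 without TG library 2, 3 or 4 and 0.0641 and 0.0745 without NG/JG library 2 or 3.

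Further genes of fatty acid and cholesterol metabolism had the same order as Acsbg1. Scd1, the desaturase that makes monounsaturated fatty acids, was at 479, 360.5, 209.6 and 287 CPM in TG and at 1175, 1627, 1144 and 1749 CPM in NG/JG (-2.09 ± 0.37, adjusted p = 0.0930). Sqle, an early enzyme of the sterol branch, was at 131, 129, 131 and 88.2 CPM in TG and 365 to 468 CPM in NG/JG (-1.81 ± 0.34, adjusted p = 0.0930). Neither overlapped between the groups, neither passed over the 8 libraries, and both passed without TG library 1 (adjusted p = 0.0171 and 0.0212). Fads2, a fatty acid desaturase, was at 44.5 to 156 CPM in TG and 406 to 495 CPM in NG/JG (-2.28 ± 0.45, adjusted p = 0.0930, and 0.0180 without TG library 1).

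A list of 33 sterol and fatty acid genes, written after these values were seen and therefore a description only, had 32 tested members. Of these, 12 (37.5%) had an unadjusted p under 0.05 toward NG/JG and 0 toward TG, 10 (31.2%) did not overlap, and the median fold change was -0.75. The summed level was 7785, 4579, 4723 and 4448 CPM in TG and 10902, 11548, 11398 and 11003 CPM in NG/JG. TG library 1 was the highest of the TG group and still below each NG/JG library, and DRG covered 7086 to 12577 CPM.

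Immediate-early genes, which neurons and glia transcribe within minutes of activity, injury or dissociation, were also higher in NG/JG. Each of the 15 tested members had a negative fold change, 10 (66.7%) had an unadjusted p under 0.05, 4 (26.7%) did not overlap, and the median was -1.16. Nr4a1, an orphan nuclear receptor, was at 1876, 1176, 869 and 1036 CPM in TG and at 3943, 2834, 2941 and 4004 CPM in NG/JG (-1.47 ± 0.35, adjusted p = 0.146). Egr1, a zinc finger factor, was at 2012, 1621, 1487 and 1333 CPM in TG and at 2607, 5660.3, 2323 and 10309 CPM in NG/JG (-1.70 ± 0.48, adjusted p = 0.182). Neither gene overlapped. Without TG library 1, Nr4a1, Fosb and Arc passed the adjusted threshold (adjusted p = 0.0200, 0.0207 and 0.0301).

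TG library 1 was the highest TG library for most of these genes. Fosb, a partner of Jun in AP-1, was at 466 CPM in it and at 86.9 to 143 CPM in the other TG libraries, against 468 to 1023 CPM in NG/JG (-1.81 ± 0.56, adjusted p = 0.212). Arc, a regulator of synaptic receptors, was at 131, 26.8, 8.54 and 11.9 CPM in TG and 104 to 308 CPM in NG/JG (-2.18 ± 0.85, adjusted p = 0.376). Atf3, a factor induced by axon injury, was at 1134, 312, 555 and 298 CPM in TG and at 881, 2443, 453 and 5479 CPM in NG/JG and overlapped (-2.01 ± 0.73, adjusted p = 0.318). Fos itself was at 10515, 5718, 5153 and 4313 CPM in TG and 6535 to 17741 CPM in NG/JG, and its unadjusted p was 0.107. Summed over 16 members, the level was 24252 CPM in TG library 1, 11142 to 13134 CPM in the other TG libraries and 18708 to 57071 CPM in NG/JG.

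Of the 16 immediate-early genes, 12 had a promoter in the RefSeq table used (GRCm38.p6), and 2 of them, Btg2 and Dusp1, held the letters TGACGTCA, the palindromic cyclic AMP response element, within 250 bases before the start; 1.55% of all 32851 promoters did. Both promoters are shown because these genes share an order between the ganglia and a motif that activity-dependent factors are known to bind, with the motif in capitals and the reading strand that of the gene. A match is a description and not a bound site.
Btg2, chr1:134079156-134079405, reverse strand: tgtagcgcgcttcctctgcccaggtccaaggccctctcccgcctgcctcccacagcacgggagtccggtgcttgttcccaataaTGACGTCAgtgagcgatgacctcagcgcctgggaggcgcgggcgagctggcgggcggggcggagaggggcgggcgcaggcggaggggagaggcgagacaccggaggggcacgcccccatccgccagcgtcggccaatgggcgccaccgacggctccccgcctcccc
Dusp1, chr17:26508473-26508722, reverse strand: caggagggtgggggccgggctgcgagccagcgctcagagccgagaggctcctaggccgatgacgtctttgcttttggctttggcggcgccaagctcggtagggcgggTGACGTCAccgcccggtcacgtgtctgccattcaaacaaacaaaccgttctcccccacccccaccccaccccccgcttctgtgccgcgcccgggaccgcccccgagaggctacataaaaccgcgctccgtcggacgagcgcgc
Btg2, an antiproliferative gene, was at 731, 564, 506 and 549.7 CPM in TG and 839 to 2095 CPM in NG/JG without overlap (-1.16 ± 0.36, adjusted p = 0.217). Dusp1, a phosphatase of MAP kinases, was at 327 to 631 CPM in TG and 451 to 1581 CPM in NG/JG with overlap (-1.11 ± 0.43, adjusted p = 0.366).

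The genes of lowest p toward NG/JG without overlap, taken by rank alone and not as a functional group, held 8 more, and none of the 8 passed over the 8 libraries. Tspan18, a tetraspanin, was at 82.0 to 102 CPM in TG and at 288, 791, 711 and 398 CPM in NG/JG (-2.59 ± 0.42, adjusted p = 0.0732). Ss18, a subunit of the BAF chromatin remodelling complex, was at 13.3, 23.2, 14.2 and 24.0 CPM in TG and 131 to 173 CPM in NG/JG (-3.02 ± 0.53, adjusted p = 0.0930). Acvr2a, an activin receptor, was at 7.27 to 13.3 CPM in TG and 56.8 to 149.8 CPM in NG/JG (-3.59 ± 0.66, adjusted p = 0.0930). In these 3 genes the TG libraries lay close together, TG library 1 included. Syt4, a synaptotagmin of dense-core vesicles, was at 43.2 to 78.2 CPM in TG and 146 to 543 CPM in NG/JG (-2.63 ± 0.47, adjusted p = 0.0930). These genes passed without TG library 1, with an adjusted p of 0.0212 for Tspan18, 0.0207 for Ss18, 0.0272 for Acvr2a and 0.0334 for Syt4.

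The other 4 of these genes were Irf1, Irgm1, Bhlhe40 and Tiparp. Irf1, an interferon-regulatory factor, was at 117 to 193 CPM in TG and at 932, 537, 468 and 1758 CPM in NG/JG (-2.67 ± 0.47, adjusted p = 0.0930). Irgm1, an interferon-induced GTPase, was at 36.5 to 86.9 CPM in TG and at 554, 467, 156 and 1797 CPM in NG/JG (-3.69 ± 0.69, adjusted p = 0.0930). NG/JG library 4 was the highest in both. Bhlhe40, a basic helix-loop-helix repressor, was at 60.7 to 180.1 CPM in TG and 380.5 to 1375 CPM in NG/JG (-3.01 ± 0.53, adjusted p = 0.0930), and Tiparp, a mono-ADP-ribosyltransferase, at 62.9 to 149 and 406 to 738 CPM (-2.56 ± 0.42, adjusted p = 0.0766). They too passed without that library, at an adjusted p of 0.0272 for Irf1, 0.0379 for Irgm1, 0.0171 for Bhlhe40 and 0.0132 for Tiparp. DRG covered 7.91 to 774 CPM for Irgm1 and 65.5 to 1131 CPM for Irf1, so that NG/JG library 4 lay above the DRG range in both.

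**Figure D3:**
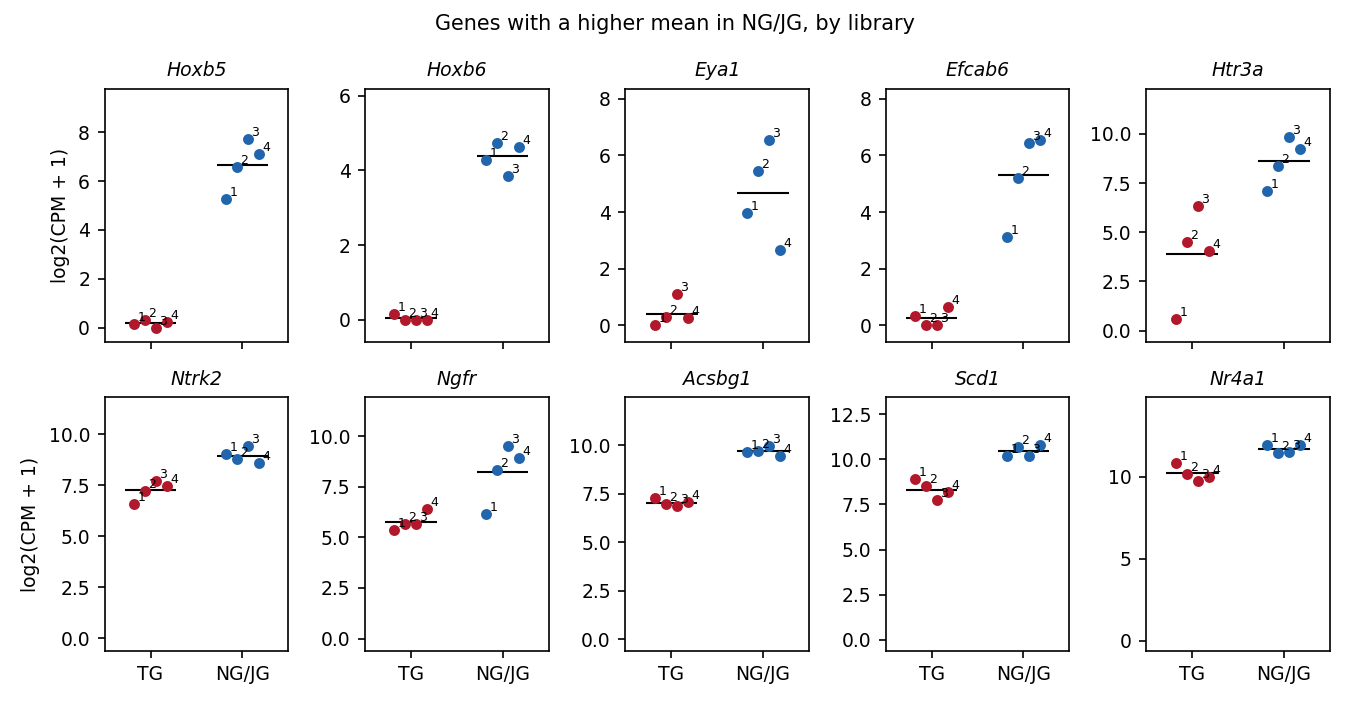
Level of 10 genes in each library as log2(CPM + 1), with TG in red, NG/JG in blue, library numbers beside the points and a line at the mean of each group. For 9 of the 10 genes the lowest NG/JG library is above the highest TG library, and Ngfr is the exception.

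The study's list of genes low in TG neurons was drawn from this series, so its direction is not independent evidence. Of its 9 members here (Coro1c, Ggta1, Map3k12, Rab9b, Ranbp6, Rapgef5, Slc35b4, Slc35c1 and Tspan12), 8 were tested, 8 had a negative fold change, 2 had an unadjusted p under 0.05 and 1 did not overlap. That 1 was Coro1c, an actin-binding coronin, at 0.617, 7.27, 28.1 and 18.2 CPM in TG and at 66.6, 76.4, 113 and 95.2 CPM in NG/JG (-2.70 ± 0.99, adjusted p = 0.329). Slc35b4, a nucleotide sugar transporter, was at 0.370 to 21.2 CPM in TG and at 51.4, 16.9, 89.8 and 89.9 CPM in NG/JG (-2.66 ± 1.18, adjusted p = 0.474). In several members the NG/JG level came from 1 library: Rapgef5 was at 99.9 CPM in NG/JG library 4 and at 0.259 to 1.61 CPM in the other NG/JG libraries. Likewise, Rab9b and Slc35c1 were at 48.1 and 38.8 CPM in NG/JG library 2 and at 0 to 1.94 and 0.111 to 1.36 CPM in the other NG/JG libraries.

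On the trigeminal side, the neuropeptides of peptidergic nociceptors were higher. Calcb, which encodes beta-CGRP, was at 124, 65.5, 89.1 and 60.0 CPM in TG and at 0.388, 2.53, 3.72 and 0.667 CPM in NG/JG (5.52 ± 1.05, adjusted p = 0.0930, DESeq2 adjusted p = 7.39e-08). Calca, which encodes alpha-CGRP and calcitonin, was at 383, 850, 2126 and 627 CPM in TG and at 55.2, 184, 4.46 and 2.22 CPM in NG/JG (4.02 ± 1.18, adjusted p = 0.198). Neither overlapped between the groups, TG library 1 included. Without that library Calcb passed (5.28, adjusted p = 0.0467). In RPKM, which compares genes per length, mean Calca was 614 and mean Calcb 83.3 in TG, against 46.2 and 2.09 in NG/JG.

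Tac1, the precursor of substance P, was at 94.7, 509, 939.7 and 308 CPM in TG and at 97.3, 15.2, 24.1 and 1.78 CPM in NG/JG, where TG library 1 and NG/JG library 1 were level (3.74 ± 1.03, adjusted p = 0.163). Nmb, an itch-related bombesin-like peptide, was at 35.8 to 92.7 CPM in TG and 0.556 to 26.5 CPM in NG/JG without overlap (2.46 ± 1.05, adjusted p = 0.439), though 20.58% of its exonic sequence is shared with Sec11a on the same strand. Adcyap1, the precursor of PACAP, had the opposite order, at 0.493, 23.9, 36.8 and 12.1 CPM in TG and at 82.3, 71.3, 264 and 40.8 CPM in NG/JG (-2.65 ± 1.05, adjusted p = 0.391). Thus 4 of 9 neuropeptide genes tested (44.4%) had an unadjusted p under 0.05 toward TG and 1 (11.1%) toward NG/JG, with a median of 0.91.

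Genes of large myelinated afferents were in part higher in TG. Pvalb, a calcium buffer of proprioceptive and low-threshold neurons, was at 16.9, 19.3, 60.6 and 158 CPM in TG and had 2 reads in NG/JG. The ratio of pooled read shares was 922 (95% interval 255 to 7624, counting error only, adjusted p = 0.0911), and Pvalb passed without TG library 1 (adjusted p = 0.0200). Nefh, the heavy neurofilament, was at 26.1 CPM in TG library 1, inside the NG/JG range of 4.56 to 53.0 CPM, and at 190.5, 249.9 and 433 CPM in the other TG libraries (2.66 ± 0.86, adjusted p = 0.242). Ldhb, a lactate dehydrogenase subunit, had the same form, at 376 CPM in TG library 1, 1141 to 1463 CPM in TG libraries 2 to 4 and 254 to 421 CPM in NG/JG (1.57 ± 0.43, adjusted p = 0.163, and 0.0195 without TG library 1). These were the 3 of 10 tested genes of the list with an unadjusted p under 0.05, and its median was 0.93.

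The study's list of genes low in NG/JG was also drawn from these libraries. Of its 6 members, 4 were tested (Pvalb, Calcb, Mrgprd and Xylt2), and each had an unadjusted p under 0.05 toward TG. Mrgprd, the receptor that marks non-peptidergic skin nociceptors, was at 0.370, 56.6, 20.1 and 29.5 CPM in TG and 0.222 to 1.74 CPM in NG/JG (5.02 ± 1.76, adjusted p = 0.291), so that TG library 1 sat among the NG/JG libraries. Xylt2, which starts glycosaminoglycan chains, was at 43.6, 31.6, 10.6 and 8.90 CPM in TG and had 3 reads in NG/JG (adjusted p = 0.146). Pdgfrl and Orai1 had no read in NG/JG and did not pass the filter over the 8 libraries. Pdgfrl, a receptor-like protein, was at 0.123, 78.6, 39.5 and 18.4 CPM in TG, at least 292-fold higher than a floor of 3 reads over the NG/JG group, and passed when tested without TG library 1 (adjusted p = 0.0447). Orai1, the pore of store-operated calcium entry, was at 0, 17.3, 9.30 and 26.9 CPM in TG, at least 119.6-fold higher, and was at 0 in TG library 1. Over the 6 genes the summed level was 185 to 301 CPM in TG and 1.11 to 5.58 CPM in NG/JG, and in DRG it was 113 to 1231 CPM.

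Genes best known from cells outside the sensory ganglion made up a further group that was high in TG. Klk6, a secreted serine protease of oligodendrocytes at chr7:51079869-51087397 (mm9, forward strand), was at 112, 25.2, 251 and 44.3 CPM in TG and had 2 reads in NG/JG. The pooled ratio was 1732 (95% interval 479 to 14309, counting error only), and Klk6 passed the test (adjusted p = 0.0267), but not without TG library 2 or 3 (0.0521 and 0.344) or NG/JG library 2 or 3 (0.0843 and 0.0748). Gh, growth hormone, at chr11:106161585-106163179 (mm9, reverse strand), was at 12.9, 594, 509 and 28.4 CPM in TG and 0 to 0.248 CPM in NG/JG (11.06 ± 1.64, adjusted p = 0.0450). It did not pass without TG library 2 or 3 (0.171 and 0.169) or without any 1 NG/JG library (0.0534 to 0.185).

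Prl, prolactin, was at 53.9, 715, 9344 and 41.8 CPM in TG and 0.890 to 4.09 CPM in NG/JG (10.11 ± 1.88, adjusted p = 0.0930). Pomc, the precursor of ACTH and beta-endorphin, was at 323, 946, 645 and 6.06 CPM in TG and 0.203 to 4.84 CPM in NG/JG (7.68 ± 1.45, adjusted p = 0.0930). The 3 hormone genes did not overlap between the groups, yet varied widely within TG, with TG library 4 lowest for Prl and Pomc. Prl and Pomc passed without TG library 1 (adjusted p = 0.0212 and 0.0409). Of 12 pituitary genes measured, 5 had a read in these 8 libraries: Gh, Prl, Pomc and members that did not pass the filter on low counts. Members without a read included Fshb, Tshb and Cga. The summed pituitary level was 438, 2263, 10501 and 76.3 CPM in TG, 1.52 to 9.18 CPM in NG/JG and 2.47 to 26.2 CPM in DRG. The part of pituitary tissue in these values was not tested. By immunohistochemistry, the study also reported the proteins of Gh, Prl and Pomc in TG neurons, which RNA counts do not measure.

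The study's list of TG genes, again drawn from these libraries, had 6 members, of which 5 were tested, and each of the 5 had an unadjusted p under 0.05 toward TG. Besides Gh, Prl and Pomc it held Ptgds, Cyp2f2 and Krt18. Ptgds, prostaglandin D synthase of meninges and glia, was at 1059, 2299.5, 1179 and 696 CPM in TG and 0.203 to 54.0 CPM in NG/JG (5.35 ± 1.09, adjusted p = 0.0960). Cyp2f2, a cytochrome P450, was at 77.4, 26.8, 73.5 and 2.84 CPM in TG and had 1 read in NG/JG (adjusted p = 0.0930). Krt18, a keratin of simple epithelia, was at 56.1, 15.0, 37.0 and 0 CPM in TG and had 2 reads in NG/JG, and was not tested.

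Oligodendrocyte genes gave 6 of 13 tested members (46.2%) at an unadjusted p under 0.05 toward TG, and 6 did not overlap. Over the 8 libraries, 0 members passed the adjusted threshold in either direction. Without TG library 1, which had the highest sum, 0 passed it toward TG and 1 toward NG/JG, and the median went from 1.74 to 1.16. Mog, a myelin glycoprotein of the central nervous system, was at 143, 12, 100.4 and 19.1 CPM in TG and 0 to 0.496 CPM in NG/JG (8.41 ± 1.70, adjusted p = 0.0950). Ermn and Hapln2, also of oligodendrocytes, were at 13.6 to 97.5 and 4.77 to 77.9 CPM in TG and had 2 reads and 1 read in NG/JG (adjusted p = 0.0930 and 0.0999). TG libraries 1 and 3 were the highest for Mog, Ermn and Hapln2. Mbp, a myelin protein shared with Schwann cells, was at 14769 to 31614 CPM in TG and 2845 to 9805 CPM in NG/JG (2.09 ± 0.47, adjusted p = 0.127). Summed over 15 markers, the oligodendrocyte level was 51635, 33178, 20750.2 and 23431 CPM in TG and 11402 to 21370 CPM in NG/JG. The part of such cells in the comparison was not tested.

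Some single genes of blood, pericytes, connective tissue and antigen-presenting cells were also higher in TG. Beta-s, a symbol of the beta-globin locus, was at 176, 1566, 751 and 501 CPM in TG and 0.222 to 0.905 CPM in NG/JG (10.33 ± 0.92, adjusted p = 0.00149). It stayed under the threshold when any 1 of the 8 libraries was left out, with an adjusted p of at most 0.0199. The near-identical globin genes Hbb-b1 and Hbb-b2 had no read in any of the 8, so the share of each copy is uncertain. Alas2, the haem synthesis enzyme of red cells, was at 9.86 to 42.0 CPM in TG and had 1 read in NG/JG (adjusted p = 0.130, and 0.0489 without TG library 1).

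Rgs5, a pericyte gene, was at 19.2 to 54.3 CPM in TG and 0.111 to 0.203 CPM in NG/JG (7.66 ± 1.56, adjusted p = 0.0960, and 0.0318 without TG library 1), and it was the 1 of 5 mural markers tested with an unadjusted p under 0.05. Igf2, a growth factor of meninges and vessels, was at 5.06 to 107 CPM in TG and 0 to 0.304 CPM in NG/JG (8.55 ± 1.84, adjusted p = 0.112, and 0.0301 without TG library 1), and Dcn, a proteoglycan of fibroblasts, was at 4039 to 7217 and 19.2 to 1865 CPM (2.66 ± 0.88, adjusted p = 0.250). Neither overlapped. Mgp, matrix Gla protein, was at 154 CPM in TG library 1 and 152 CPM in NG/JG library 1, with 448 to 1250.2 CPM in the other TG libraries and 0.608 to 104 CPM in the other NG/JG libraries (3.03 ± 1.08, adjusted p = 0.307). The MHC class II genes H2-Aa and H2-Ab1, of antigen-presenting cells, were at 1532 to 5178 and 1649 to 3138 CPM in TG and at 10.8 to 923 and 19.5 to 1053 CPM in NG/JG (adjusted p = 0.243 and 0.411). Over 13 macrophage markers the sum was 7901 to 22445 CPM in TG and 60.1 to 7445 CPM in NG/JG, and over 11 fibroblast and meningeal markers it was 5386 to 9627 and 316 to 3794 CPM. The 10 endothelial markers tested had a median of 0.05, with 5 above 0 and 5 below. Sums of endothelial, mural and Schwann cell markers overlapped between the groups. For the mural sum this was through TG library 1 alone, at 82.2 CPM. TG libraries 2 to 4 were at 255 to 597 CPM and NG/JG at 62.4 to 209.9 CPM. Without TG library 1, the adjusted threshold was passed toward TG by 2 mural, 1 endothelial and 1 Schwann cell marker. Toward NG/JG it was passed by 1 Schwann cell marker. The part of these cells was not tested either.

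Fth1, the heavy chain of the iron store ferritin at chr19:10057193-10059582 (mm9, forward strand), was the fourth gene that rose in TG. It was at 9140.3, 30835, 16678 and 21149 CPM in TG and at 2971, 2186, 1878 and 2757 CPM in NG/JG (2.99 ± 0.44, adjusted p = 0.0450), with 1964 to 6373 CPM in DRG. The call was lost without TG library 2, 3 or 4 (0.129, 0.149 and 0.0959) and without NG/JG library 2, 3 or 4 (0.185, 0.121 and 0.134). Many processed copies of Fth1 lie elsewhere in the genome, so its count is uncertain. S100b, a calcium-binding protein of glia and large neurons, was at 815, 1952, 1433 and 1710.3 CPM in TG and 224 to 395 CPM in NG/JG (2.42 ± 0.39, adjusted p = 0.0732). Cuedc2, a ubiquitin-binding adaptor, was at 778 to 1444 CPM in TG and 207 to 385 CPM in NG/JG (1.89 ± 0.35, adjusted p = 0.0930), with 17.77% of its exonic sequence shared with Fbxl15 on the other strand. Snrpb, a core protein of the spliceosome, was at 431 to 603 and 95.1 to 189.9 CPM (1.92 ± 0.36, adjusted p = 0.0930). AF251705 was at 17.5 to 116 CPM in TG and had 1 read in NG/JG (adjusted p = 0.0930). These 4 genes passed without TG library 1, at an adjusted p of 0.0132 for S100b, 0.0171 for Cuedc2, 0.0207 for Snrpb and 0.0266 for AF251705.

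**Figure D4:**
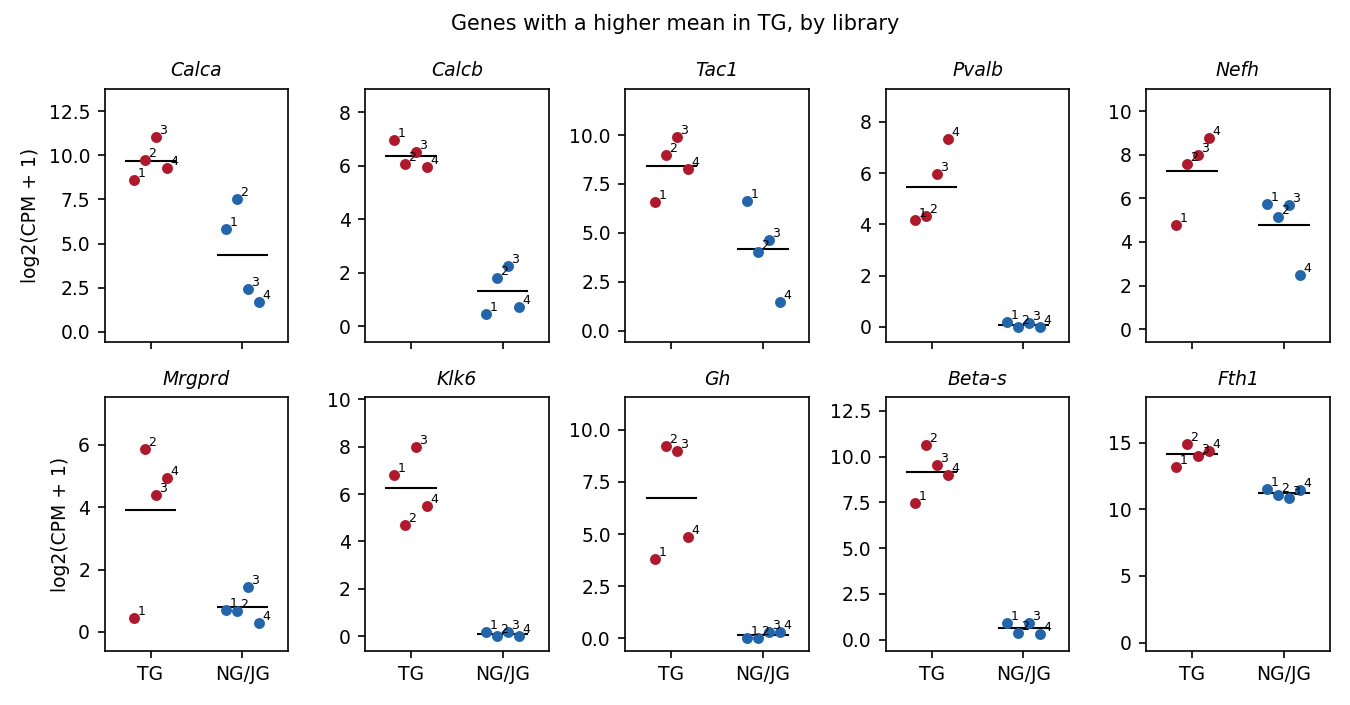
Level of 10 genes in each library as log2(CPM + 1), with TG in red, NG/JG in blue, library numbers beside the points and a line at the mean of each group. For 7 of the 10 genes the lowest TG library is above the highest NG/JG library; Tac1, Nefh and Mrgprd are the exceptions, each through TG library 1.

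Genes of protein synthesis and respiration were broadly higher in TG, and TG library 1 was again nearer to NG/JG. Of 64 cytosolic ribosomal protein genes tested, 59 had a positive fold change, 20 (31.2%) had an unadjusted p under 0.05 toward TG and 0 toward NG/JG, and 23 (35.9%) did not overlap. The median was 1.53, or 1.80 over 71 genes without TG library 1, when 12 members passed the adjusted threshold. Rpl8, a protein of the large subunit, was at 373, 754, 548 and 528 CPM in TG and 127 to 195 CPM in NG/JG (1.78 ± 0.36, adjusted p = 0.0960). Rplp0, of the stalk, was at 282, 905, 696 and 745 CPM in TG and 136 to 203 CPM in NG/JG (1.96 ± 0.41, adjusted p = 0.101). Neither overlapped, and both passed without TG library 1 (adjusted p = 0.0200 and 0.0140). The summed ribosomal level was 3456 CPM in TG library 1, 7869 to 9602 CPM in TG libraries 2 to 4, 2213 to 2574 CPM in NG/JG and 2209 to 3876 CPM in DRG. Ribosomal protein genes have many processed copies, which can take or lend reads. Rpl8 and Rplp0 have 862 and 1659 bases of exon, against a median of 3855.5 over the genes tested. The part of length in the ribosomal and respiratory lists was not tested.

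Of 78 respiratory chain subunits tested, 74 had a positive fold change, 42 (53.8%) had an unadjusted p under 0.05 toward TG and 1 (1.28%) toward NG/JG, and the median was 1.18. That 1 was Sdha (-1.28), and the other members with a negative fold change were Ndufs1 (-0.88), Atp5a1 (-0.46) and Atp5sl (-0.40). Toward TG, 8 (10.3%) did not overlap, against 6.13% over all genes tested. Ndufb11, a subunit of complex I with 908 bases of exon, was at 135, 265, 199.8 and 225 CPM in TG and 15.9 to 76.5 CPM in NG/JG (2.45 ± 0.57, adjusted p = 0.133, and 0.0460 without TG library 1). The sum was 11455 CPM in TG library 1, 28950 to 29731 CPM in TG libraries 2 to 4, 8685 to 14587 CPM in NG/JG and 9109 to 14375 CPM in DRG. TG library 1 thus lay inside the NG/JG range, and without it 23 members passed the adjusted threshold.

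Several channel families gave no member at an unadjusted p under 0.05: TRP channels (11 tested, median 0.28), P2X receptors (5, -0.23), HCN channels (4, 1.86), voltage-gated calcium channels (13, 0.02), GABA-A receptors (5, -0.02), nicotinic receptors (3, 1.22) and mechanosensory and acid-sensing channels (10, -0.23). Potassium channels (31 tested, median 0.01) and glutamate receptors and transporters (13, -1.12) gave 1 each, toward NG/JG. Without TG library 1 the median was -1.33 for TRP channels, -1.44 for P2X receptors, 0.44 for GABA-A receptors, -0.01 for nicotinic receptors, 0.21 for the mechanosensory list, 0.29 for calcium channels and 0.10 for potassium channels, over 13, 6, 6, 6, 11, 16 and 38 genes. More members then passed the filter on low counts, P2rx2, Chrna3 and Chrnb4 among them. These medians thus cover other sets of genes than those over the 8 libraries, and the part of TG library 1 in the change was not tested. Equal levels are not shown by a p above the threshold. Trpv1, the capsaicin and heat receptor, was at 2.84 to 9.62 CPM in TG and at 16.7, 48.6, 173 and 0.111 CPM in NG/JG (-3.18 ± 1.48, adjusted p = 0.505). P2rx3, an ATP-gated channel of nociceptors, was steady at 29.5 to 38 CPM in TG and at 141, 35.0, 400.4 and 0.667 CPM in NG/JG (-2.05 ± 1.15, adjusted p = 0.615). NG/JG library 4, which had the fewest genes with a read, was the lowest for both.

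**Figure D5:**
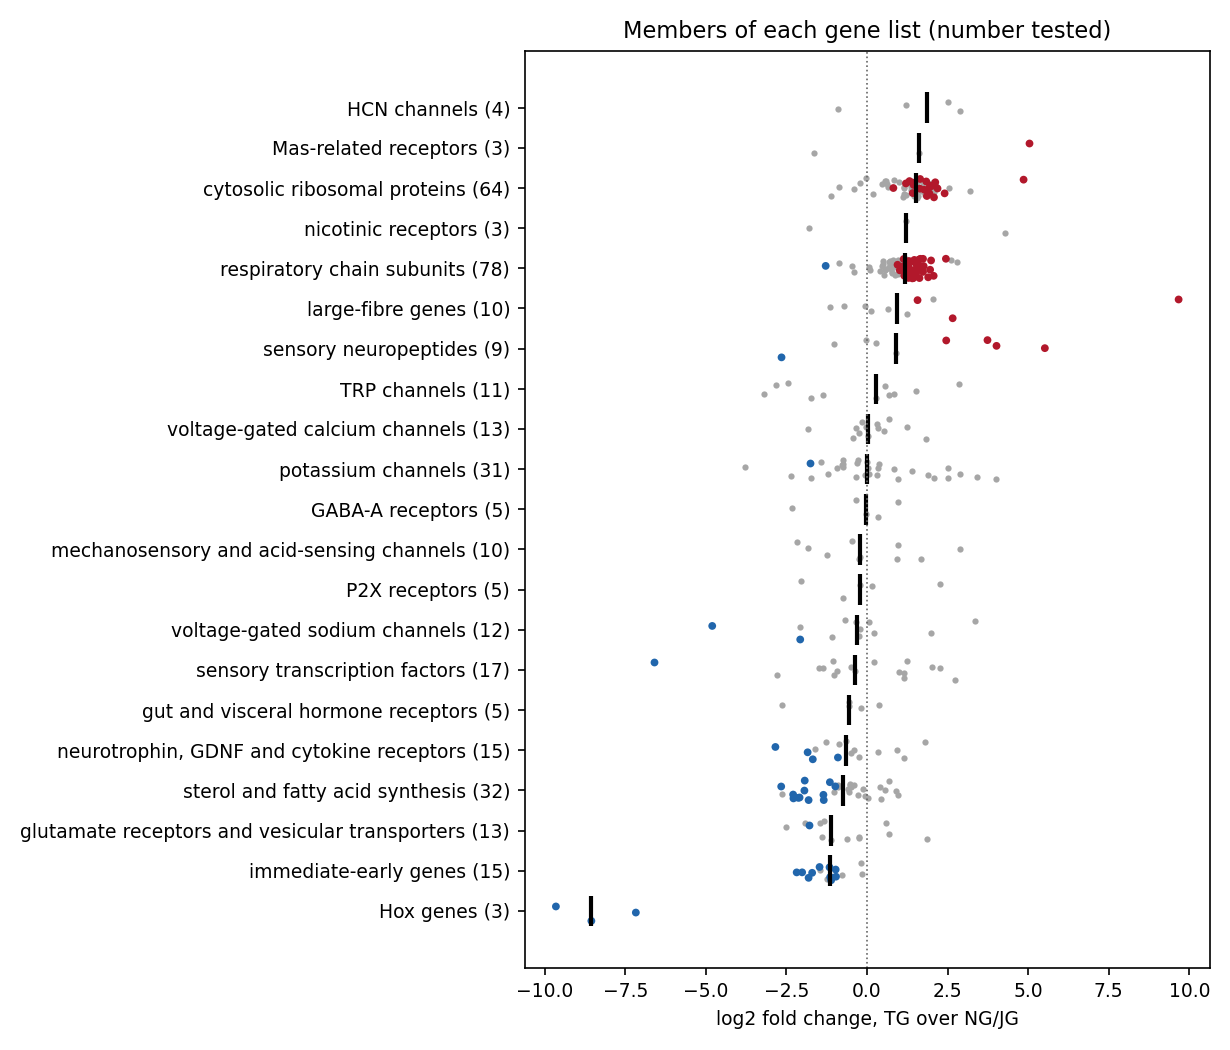
Fold change (log2, TG over NG/JG) of each tested member of the gene family and pathway lists with at least 3 tested genes, cell marker lists and the study's lists left out, as 1 point a gene, with the number tested in brackets and a black bar at the list's median. Red and blue points have an unadjusted quasi-likelihood p under 0.05; medians run from 1.86 for HCN channels, with no coloured point, to -8.55 for the 3 Hox genes tested, of which Hoxb3 had no read in TG.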

How the data were processed

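RNA of sorted TG and NG/JG neurons was measured in 8 libraries made by SMART-seq2, which primes on poly(A) and keeps no strand, and read as 50-base single reads on an Illumina HiSeq. The authors made reads with bcl2fastq, aligned them to mm9 with TopHat2 and deposited raw counts per gene symbol from HTSeq, per the processing notes and the methods; summary lines of HTSeq were left out here. In these 8 libraries 32.2% to 47.0% of uniquely placed reads lay outside genes. Members and lists were chosen with earlier results of these data known.

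Counts were fitted in edgeR 4.0.16 (R 4.3.3) with TMM factors, filterByExpr, estimateDisp and the quasi-likelihood F test, with the ganglion as the single term and Benjamini-Hochberg adjustment over 11769 genes. The study used DESeq, so DESeq2 1.42.0 was the first alternative; limma 3.58.1 and others are in the closing section. RPKM used the exon unions of GENCODE vM1 on mm9 and total reads on genes; 21672 of 22609 symbols had a length. Ratios for genes with 1 to 3 reads in a group used pooled reads and exact Clopper-Pearson 95% intervals. The fit was tested on simulated data before use. Python 3.11.15 and scipy 1.17.1 made the tables.

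Named genes were those with an adjusted p under 0.05; the 12 of lowest p per direction with no overlap and a mean above 10 CPM in the higher group; up to 6 of lowest p in each list, and further members that DESeq2 called without overlap; the genes the study names; and the neuron markers. Genes added after their values were seen are Hoxb4, Hoxb2, Hoxd1, Sqle, Fads2, Fos, Arc, P2rx2, Npy2r, Chrna3, Chrnb4 and Scn10a. Other genes the rule selects enter only the counts of their lists, and some genes are not reported here. Deviations from the group mean correlated only weakly between libraries with the same replicate number, which does not settle whether they were paired.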

Additional observations from a re-analysis of the deposited data

Results flagged for a closer look

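Among 179 pairs of a named gene and a ganglion, 17 had a library that lay apart from the other 3 by more of the group's range than Dixon's 95% limit for 4 values allows. The limit flags about 1 in 20 groups of normally distributed values. CPM was not shown to be normal and the genes were chosen in part by their levels, so the 17 cannot be set against that rate. The library that stood apart was TG library 1 for 2 of the 17, TG library 3 for 3, TG library 4 for 4, NG/JG library 2 for 4, NG/JG library 3 for 3 and NG/JG library 4 for 1. All values are TMM-normalized CPM, and no explanation was tested.

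In TG library 1, Fosb was at 466 with the next TG library at 143, and Arc at 131 with the next at 26.8. In TG library 3, Prl was at 9344 with the next at 715, Cgn at 3.99 with the next at 0.455, and Rapgef5 at 4.75 with the next at 0.947. In TG library 4, H2-Aa was at 5178 with the next at 2029, AF251705 at 116 with the next at 24.7, and Chrna3 at 5.11 with the next at 0.760. Sqle was low there, at 88.2 with the next at 129.

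In NG/JG library 2, Ggta1 was at 193 with the next at 26.9, Rab9b at 48.1 with the next at 1.94, and Slc35c1 at 38.8 with the next at 1.36, while Acvr2a was low at 56.8 with the next at 135. In NG/JG library 3, Pirt was at 272 with the next at 59.9, Chrna3 at 274 with the next at 35.6, and S100b at 395 with the next at 252. In NG/JG library 4, Rapgef5 was at 99.9 with the next at 1.61.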

How the results depend on the processing

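Genes called (4 higher in TG, 2 in NG/JG; by the study's thresholds 3 and 2) depended on the test more than on scaling. Called genes and, after the slash, those past the study's thresholds were, for TG and then NG/JG, 249/109 and 211/107 with DESeq2, 178/91 and 69/47 with edgeR's likelihood-ratio test, 22/16 and 22/18 with legacy=FALSE, 257/73 and 325/95 with limma voom and sample quality weights, 26/18 and 30/25 without the filter on low counts, and 358/116 and 126/56 with all 16 libraries in 1 fit. Robust fitting, RLE factors, CPM in place of RPKM and a ratio of mean CPM moved no count by over 1.5 times. With the replicate block the counts were 1/0 and 0/0. Deviations of same-numbered libraries from their group means correlated between -0.03 and 0.066, which cannot settle whether the numbers pair them. Leaving out 1 library gave 1 to 208 genes called in TG and 0 to 117 in NG/JG, and 0 to 56 and 0 to 57 by the study's thresholds. The highest values came without TG library 1, where DESeq2, chosen after seeing the data, gave 675/158 and 780/302. The cause was not tested.

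Of 1651 refits of 92 named genes, 18 reversed in sign. With limma voom the fold change was 0.27 for Avil, 0.25 for Prph, 0.59 for Elavl4, 1.30 for Rab9b and 0.40 for Rapgef5. Elavl4 was also at 0.02 with all 16 libraries, 0.52 with the replicate block, 0.29 and 0.39 without NG/JG library 2 or 3, 0.16 without TG library 1 and 0.03 with DESeq2 without it. Prph was at 0.14 without TG library 1, Pirt at 0.67 without NG/JG library 3, Uchl1 at -0.05 and Scn10a at -0.24 without NG/JG library 1, Rab9b at 2.08 without NG/JG library 2, and Rapgef5 at 0.68 and Scn10a at -0.05 without NG/JG library 4. Leaving out 1 library gave, from lowest to highest, -1.14 to 0.67 for Pirt, -0.64 to 0.14 for Prph, -0.05 to 0.60 for Uchl1, -0.49 to 0.39 for Elavl4, -2.56 to 2.08 for Rab9b, -5.16 to 0.68 for Rapgef5 and -0.24 to 0.80 for Scn10a. Of 561 refits of list medians, 508 moved by less than 1 SD between libraries. Depth limits genes near 1 CPM.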
